A study of Mus musculus with 2 samples.

Results

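The transcripts described here are those of 10 genes of fat cells, a list set by gene symbol with earlier results of these data known: Adipoq, Plin1, Plin4, Cidec, Cidea, Lep, Cfd, Lpl, Retsat and Ucp1. All 10 were found among the 40879 gene symbols counted in the mouse intestine. They were compared between an ERAP1 wild type (WT) library and a library labelled ERAP1+/-, the latter from mice labelled as hetero type for ERAP1, an aminopeptidase of the endoplasmic reticulum that trims peptides for presentation by MHC class I. Each genotype had 1 library, made from equal amounts of intestine RNA pooled from 3 mice. Mice of both genotypes were on the C57BL/6 background and 8 weeks old at the start of the study. The ERAP1+/- line came from the tm1a (EUCOMM) allele crossed with a strain that expresses Cre recombinase, which removes exons 6 and 7, and the methods do not name the promoter that drives Cre. The labels name no treatment for these samples. Removal of fat is described for the isolation of epithelial cells and is not stated for the tissue used for RNA.

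The intestine carries fat on its outside: the mesentery, which brings vessels to the bowel, holds white adipose tissue and is covered by mesothelium, a flat epithelium. White adipocytes store triglyceride in one large droplet coated by perilipins and CIDE proteins, take up fatty acids released by lipoprotein lipase, and secrete hormones such as adiponectin and leptin. Brown and beige adipocytes hold many small droplets and burn fat through the uncoupling protein UCP1. Several of these genes are not restricted to fat: Lpl is made in muscle, heart and macrophages, Retsat in liver, kidney and intestine, Plin4 in striated muscle, and Cidea in the sebaceous glands of mouse skin.

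Counted reads, from the 3' ends of polyadenylated transcripts, numbered 8114826 for WT and 8907515 for ERAP1+/-. Levels are given in CPM, counts per 1000000 reads, with library sizes adjusted by edgeR's trimmed mean (TMM). Differences are ERAP1+/- minus WT on the log2(CPM + 1) scale, on which low genes appear less changed than they are. Where a pair of read numbers is given, the WT number comes first. With 1 library per genotype there is no replicate check and no test, and the intervals are exact 95% intervals of the ratio of reads and cover counting error only. Erap1, the targeted gene, had 229 and 2 reads, which made it 137-fold lower (37.5 to 1139) with the ERAP1+/- label. This goes against that label, since a heterozygote keeps 1 intact copy of the gene, and the library is called by its label for that reason. All directions below rest on the labels. Reads from the 3' end do not cover exons 6 and 7, so they do not check the deletion itself. The ratio of Xist, a transcript of the inactive X chromosome of females, was 3.30 (3.12 to 3.48), and its part in the differences below was not tested. As a check of the labelled tissue, all 12 epithelial genes of the intestine on a marker list had reads in both libraries, with summed levels of 10886 and 10855 CPM. Without Muc2, the summed levels were 9339 and 7314 CPM, a ratio of 0.783 (0.775 to 0.791). In bulk tissue, fewer adipocytes and less RNA per adipocyte cannot be told apart.

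The 3 members Adipoq, Cfd and Retsat had a ratio whose interval lay above 1 under TMM and under scaling by the total count alone. Their promoters are printed because they belong to the genes that were higher in the library labelled ERAP1+/-. RefSeq windows on GRCm38.p6 from 250 bases before to 50 bases after the start of the gene were found for 8 of the 10 members, 9 windows in all, since Cidec has 2 starts. Both strands were searched for the CCAAT box (CCAAT), the TATA box (TATAAA) and the half-site of nuclear receptors such as PPARγ (AGGTCA), with matches shown in capitals. These windows lie on the plus strand, Adipoq at chr16:23146286-23146585, Cfd at chr10:79890603-79890902 and Retsat at chr6:72598352-72598651.
Adipoq: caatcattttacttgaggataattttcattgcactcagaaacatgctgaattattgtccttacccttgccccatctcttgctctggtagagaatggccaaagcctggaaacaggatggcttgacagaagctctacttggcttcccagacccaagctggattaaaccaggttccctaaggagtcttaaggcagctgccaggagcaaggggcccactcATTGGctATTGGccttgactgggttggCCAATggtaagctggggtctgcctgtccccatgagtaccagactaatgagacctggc
Cfd: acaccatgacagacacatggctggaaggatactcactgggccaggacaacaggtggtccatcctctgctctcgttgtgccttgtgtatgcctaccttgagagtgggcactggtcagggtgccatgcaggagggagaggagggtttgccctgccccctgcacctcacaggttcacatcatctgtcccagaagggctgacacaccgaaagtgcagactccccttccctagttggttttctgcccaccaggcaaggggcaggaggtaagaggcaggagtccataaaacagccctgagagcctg
Retsat: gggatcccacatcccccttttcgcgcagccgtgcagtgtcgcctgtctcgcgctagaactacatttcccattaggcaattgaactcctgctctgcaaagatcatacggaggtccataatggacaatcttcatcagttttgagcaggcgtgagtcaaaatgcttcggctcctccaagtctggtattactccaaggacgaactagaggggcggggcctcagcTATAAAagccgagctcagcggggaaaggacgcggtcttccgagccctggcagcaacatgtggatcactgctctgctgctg

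No motif occurred in more than 1 of the 3 printed windows. The Adipoq window held 3 CCAAT boxes, which begin 34, 27 and 7 bases before the start, the first 2 of them on the opposite strand, and no CG dinucleotide. The Retsat window held a TATAAA that begins 30 bases before the start, and 16 CG dinucleotides. The Cfd window held none of the 3 motifs and 2 CG dinucleotides. Of all 32851 windows, 37.4% held CCAAT, 13.6% TATAAA and 16.3% AGGTCA, and the median number of CG dinucleotides was 7. Among the other members, Plin4 held 1 CCAAT box and Ucp1 1 AGGTCA, and Lep, Plin1 and both Cidec windows held no match.

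Among the secreted proteins, Adipoq and Cfd were higher in the library labelled ERAP1+/- and Lep had too few reads to order the libraries. Adipoq encodes adiponectin, a hormone made almost exclusively by adipocytes, and lies on chromosome 16 of GRCm38 from 23146536 to 23158028. It had 34 reads with the WT genotype and 124 with ERAP1+/-, levels of 4.38 and 13.3 CPM. The ratio was 3.05 (2.07 to 4.59). Of the 16142 genes with at least 10 reads over both libraries, 0.756% had a higher difference than its 1.41.

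Cfd encodes complement factor D, or adipsin, the protease that starts the alternative complement pathway and that fat cells secrete in bulk. The gene lies on chromosome 10 from 79890853 to 79892655. It had 163 and 558 reads, levels of 21.0 and 60.0 CPM, a ratio of 2.86 (2.40 to 3.43). The log2 difference of 1.47 was the highest among the members. Lep, which encodes the satiety hormone leptin, had 7 and 4 reads and a ratio of 0.477 (0.102 to 1.88), an interval that allows a difference in either direction.

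Among the lipid droplet proteins, Cidea was lower in the library labelled ERAP1+/-, while the other members did not differ by 2-fold on the log2(CPM + 1) scale. Plin1, the perilipin that guards the droplet of white adipocytes against lipases, had 5 and 15 reads, a ratio of 2.51 (0.866 to 8.81). Cidec, whose protein fuses droplets into a large one, had 16 and 35 reads, a ratio of 1.83 (0.985 to 3.54). Both intervals include 1. With scaling by the total count, the interval of Cidec (1.07 to 3.86) lay above 1.

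Plin4, a perilipin of nascent droplets, had 141 and 128 reads, levels of 18.1 and 13.8 CPM. Its ratio was 0.758 (0.592 to 0.970), and with scaling by the total count the interval (0.646 to 1.06) included 1. In the annotation it overlaps Hdgfl2 on the opposite strand, which had 159 and 190 reads. Retsat overlaps Gm45053 on the opposite strand, a symbol without a row in the counts, and Cidea overlaps B430212C06Rik, which had 1 and 0 reads. Whether the counting used strand is not given in the sources used here, so reads of Plin4, Retsat and Cidea cannot be told apart from those of their antisense partners.

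Cidea, a droplet protein of brown adipocytes and sebocytes, had 98 WT reads and 8 ERAP1+/- reads. The levels were 12.6 and 0.860 CPM, and the gene was 14.7-fold lower (7.16 to 34.9). Its difference of -2.87 had the opposite sign to those of Adipoq and Cfd, and 1.14% of the genes with at least 10 reads had a lower one. The intervals of Cidea and of the remaining members with at least 10 reads overlapped for Lep alone.

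Among the enzymes, Lpl was at a similar level in both libraries and Retsat was moderately higher in the library labelled ERAP1+/-. Lpl, the lipase that frees fatty acids from circulating lipoproteins, had 285 and 353 reads, levels of 36.7 and 37.9 CPM, a ratio of 1.03 (0.883 to 1.21). Retsat, which saturates retinol and is a target of PPARγ in adipocytes, had 252 and 469 reads, levels of 32.4 and 50.4 CPM. Its ratio was 1.55 (1.33 to 1.82), short of 2-fold. Ucp1, the uncoupling protein of brown fat, had 3 and 0 reads. Since 0 reads leaves room for as many as 3, which is 0.322 CPM in the library labelled ERAP1+/-, a difference in Ucp1 was not detectable at this depth.

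**Figure D1:**
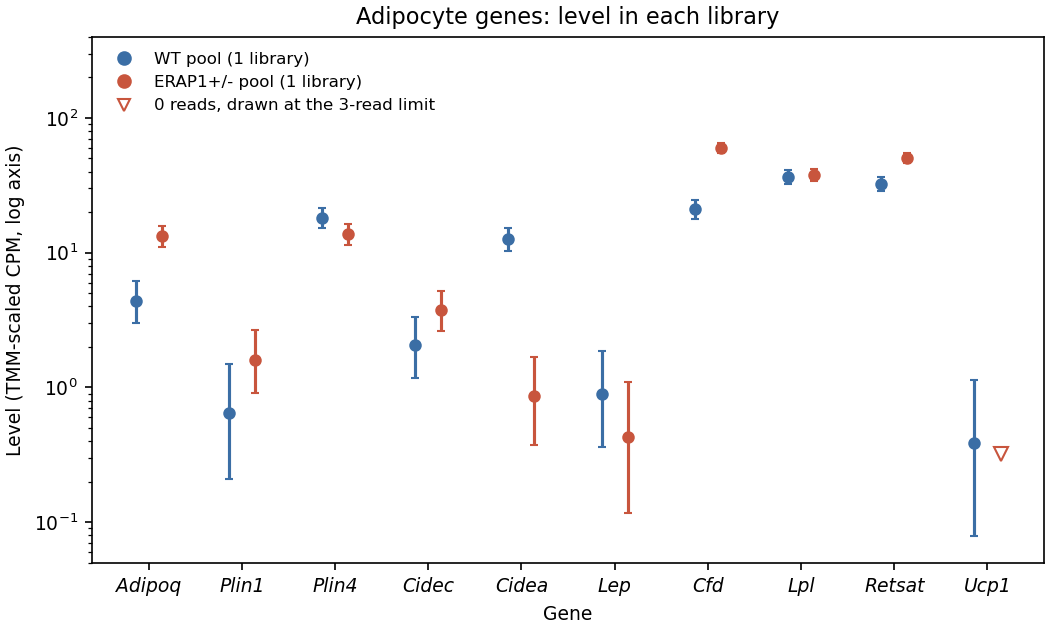
Level of each of the 10 adipocyte genes in the WT (blue) and ERAP1+/- (red) library, in TMM-scaled CPM on a log axis, with exact 95% Poisson intervals for counting error. Adipoq, Cfd and Retsat are higher in the library labelled ERAP1+/- and Cidea is lower (12.6 and 0.860 CPM), while the open triangle marks the 0 reads of Ucp1.

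By the 2-fold rule with a log2(CPM + 1) of at least 4 (15 CPM) in 1 or both libraries, 4 of the 10 members could be called, and 1 of them, Cfd, was higher. Among all 8013 genes past that level, 1.39% were higher by more than 2-fold and 3.96% were lower. Plin4 lay just inside the level, at 4.26, and Adipoq and Cidea just outside it, at 3.84 and 3.77. With at least 10 reads over both libraries in place of the level, 9 members qualified, of which Adipoq and Cfd were higher and Cidea was lower. The background under that rule was 2.99% higher and 5.63% lower.

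Of the 9 members, the interval of the ratio lay above 1 for Adipoq, Cfd and Retsat, below 1 for Plin4 and Cidea, and included 1 for the other 4. Among all genes with at least 10 reads, the interval lay above 1 for 20.6% and below 1 for 23.8%. The 4 droplet proteins alone ran from a ratio of 2.51 for Plin1 to 0.0682 for Cidea. The median log2 difference of the 9 members was 0.62 and the range -2.87 to 1.47, while the median over all genes with at least 10 reads was 0.00.

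**Figure D2:**
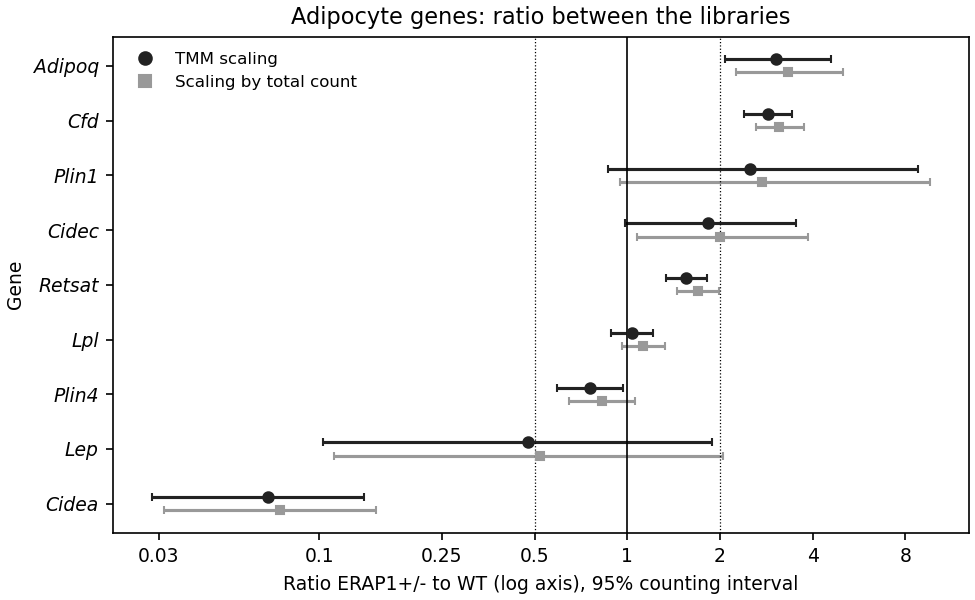
Ratio of the ERAP1+/- to the WT level for the 9 adipocyte genes with at least 10 reads, on a log axis with exact 95% counting intervals, under TMM (black circles) and total count scaling (grey squares). Dotted lines mark 2-fold. Under TMM, Adipoq (3.05), Cfd (2.86) and Plin1 (2.51) stand above 2, Lep (0.477) just below 0.5 and Cidea (0.0682) far below it. The intervals of Plin1, Cidec, Lpl and Lep include 1 under TMM.

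Added together, the 10 members had 1004 and 1694 reads. These were 0.0124% (Wilson 95% interval 0.0116% to 0.0132%) and 0.0190% (0.0181% to 0.0199%) of all counted reads. The ratio of the summed levels was 1.41 (1.30 to 1.53). The sum rested on few genes. Cfd and Retsat tied for the most reads over both libraries. The ratio was 1.13 (1.03 to 1.24) without Cfd and 1.36 (1.24 to 1.49) without Retsat. Without Cfd, Lpl and Retsat together, the ratio was 0.863 (0.735 to 1.01), for a sum that holds the 98 and 8 reads of Cidea. Of the genes left out, Lpl and Retsat are also made outside fat. For Adipoq, Plin1, Cidec and Lep alone, a subset chosen after the values were seen, the reads were 62 and 178 and the ratio was 2.40 (1.79 to 3.26).

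**Figure D3:**
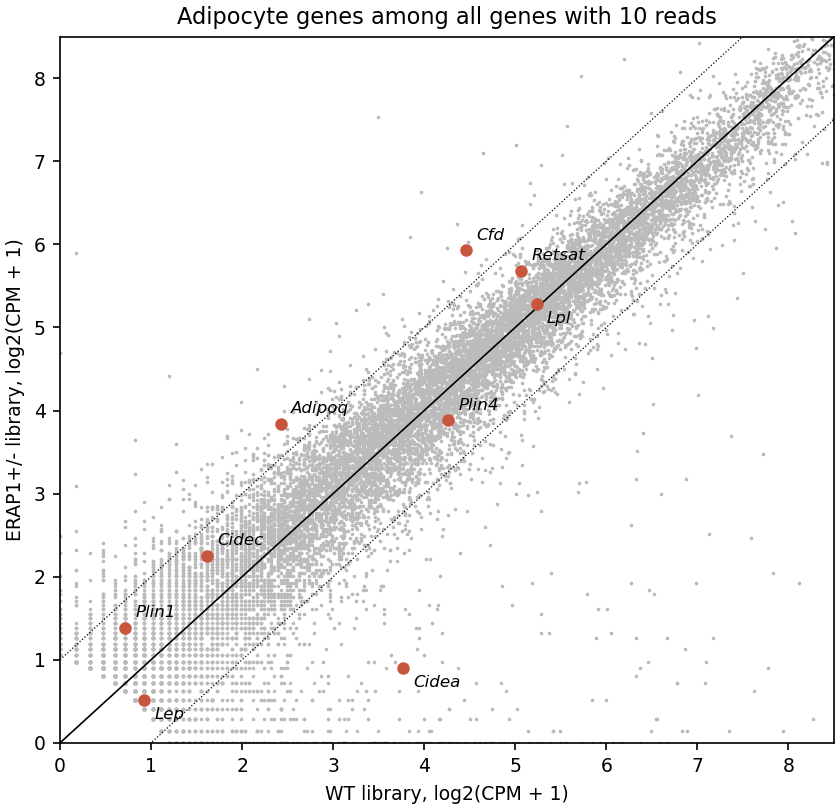
Level of every gene with at least 10 reads over both libraries (grey) on the log2(CPM + 1) scale, WT on the horizontal and ERAP1+/- on the vertical axis, with the 9 adipocyte genes in red. Genes above 8.5 on either axis are not drawn. The solid line marks equal levels and the dotted lines 2-fold, beyond which lie Adipoq, Cfd and Cidea.

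Other genes of fat cells were examined as a list of 25, all of which had at least 10 reads. Their median log2 difference was 0.04, with 13 higher and 12 lower. The interval of the ratio lay above 1 for 10, below 1 for 6 and included 1 for 9. Among all genes with at least 10 reads, it lay above 1 for 20.6% and below 1 for 23.8%. The ratio of the summed levels was 0.962 (0.934 to 0.991), from 8021 and 9239 reads. Itih5, named after its values were seen, held 3832 and 3472 of those reads. By the 2-fold rule with the level, 1 of the 13 genes past it was called, Pck1, which encodes the enzyme adipocytes use to make glycerol phosphate and which the gut epithelium also expresses. It had 376 and 983 reads, a ratio of 2.18 (1.94 to 2.47). The following genes were chosen after their values were seen. Fabp4, a fatty acid carrier of adipocytes and capillaries, had 435 and 887 reads and a ratio of 1.70 (1.52 to 1.91). Pparg, the master regulator of adipocyte formation, had 148 and 301 reads and a ratio of 1.70 (1.39 to 2.08). Which cells of the bulk tissue made the Pparg transcripts was not tested. Acvr1c, a receptor of mature white adipocytes, had 38 and 138 reads, a ratio of 3.03 (2.10 to 4.47). Against these, Retn, which encodes resistin, had 61 and 30 reads and a ratio of 0.411 (0.256 to 0.646), and the glucose transporter gene Slc2a4, also a gene of muscle, had 219 and 131 reads, with an interval of the ratio from 0.399 to 0.623.

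In the list of 14 genes of the lipid droplet coat and of lipolysis, 12 had at least 10 reads, with a median difference of -0.06, or 0.07 with scaling by the total count. The 1 gene called was Mgll, the monoglyceride lipase that completes triglyceride breakdown, with 2087 and 648 reads and a level 3.86-fold lower (3.53 to 4.22) in the library labelled ERAP1+/-. Plin2, the perilipin of most cell types, chosen after its values were seen, had 895 and 1069 reads and a ratio of 0.998 (0.912 to 1.09). Of 13 thermogenic genes with at least 10 reads, 4 were higher and 9 lower, with a median difference of -0.22. None of the 5 past the level was called. Cox7a1, a subunit of cytochrome oxidase in muscle and brown fat, had 964 and 1381 reads, and Ppargc1a, a coactivator of mitochondrial genes, 614 and 704. With at least 10 reads in place of the level, 3 were called, all lower, and these are named after their values were seen. Elovl3, a fatty acid elongase of brown fat and sebaceous glands, had 99 and 0 reads. With the 0 set at 3 reads, the floor used here for each library, its level was at least 39.5-fold lower, while the exact interval, which also covers the counting error of the 99 reads, began at 31.5-fold. Cox8b, a cytochrome oxidase subunit of muscle and brown fat, had 37 and 6 reads and was 7.38-fold lower (3.09 to 21.4). Fabp3, the fatty acid carrier of muscle and heart, had 38 and 14 reads and was 3.25-fold lower (1.72 to 6.49).

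Partners of the members were listed by function. For Lpl, none of 4 genes past the level that handle the lipase or its lipoproteins was called, among them Sel1l (884 and 1063 reads), whose protein helps the lipase leave the endoplasmic reticulum. For Adipoq and Lep, the receptors Adipor1 (508 and 515 reads) and Adipor2 (1288 and 1280 reads) had ratios of 0.847 (0.748 to 0.959) and 0.830 (0.768 to 0.898). The leptin receptor Lepr, chosen after its values were seen, with 19 and 57 reads, had a ratio of 2.51 (1.47 to 4.46). For Cfd, its substrate in the alternative pathway, Cfb, had 629 and 727 reads and a ratio of 0.965 (0.867 to 1.08), and C3, the central component, had 440 and 776 reads and a ratio of 1.47 (1.31 to 1.66).

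Genes of tissues that lie next to fat, or that make some of the same transcripts, are given beside the members. Mesothelium, with 10 genes listed, had a median difference of 0.72 over the 8 genes with at least 10 reads, 7 higher and 1 lower, the last being Krt19, which the gut epithelium makes in bulk (10776 and 9290 reads). The summed level of the whole list was 1398 CPM (WT) and 1026 CPM (ERAP1+/-), a ratio of 0.734 (0.714 to 0.755). Without Krt19, left out with the values known, the direction reversed. That sum was 10.8 CPM (WT) and 27.2 CPM (ERAP1+/-), a ratio of 2.52 (1.96 to 3.26). Of the 10 genes, 4 were at 0 in the WT library, and the pair of these with the most reads is named after the values were seen. Msln had 23 reads in the library labelled ERAP1+/-, at least 6.40-fold higher against the floor, with an exact lower limit of 4.80-fold. Lrrn4 had 28 reads there, at least 7.80-fold higher against the floor, with an exact lower limit of 5.93-fold. Gpm6a held 59 and 130 of the 84 and 253 reads in the sum without Krt19, so that sum rested largely on 1 gene. The ratio of Gpm6a was 1.84 (1.34 to 2.55). The part of mesothelial tissue in the higher members was not tested.

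Beside the lower Cidea, most genes listed as markers of skin were lower. Of 12 sebaceous gland genes, 10 were lower and 2 higher, 4 of the 7 past the level were called lower, and the median difference was -1.69. Scd3, a sebocyte desaturase, had 881 reads and 1 read, and Far2, which makes fatty alcohols for wax, had 274 and 26. Scd1 (1405 and 459 reads) and Fa2h (487 and 282 reads), also on this list, were lower too. Which tissue made these transcripts was not tested. The summed level of the list was 676 CPM (WT) and 306 CPM (ERAP1+/-). Named after the values were seen, Dgat2l6 was at 0 in the latter with 24 reads in the former. All 10 epidermis genes were lower, with the largest differences for Flg, Krtdap, Lor and Krt1, and their summed level was 2632 and 37.3 CPM. Ivl and Dsc1, named for this after the values were seen, were at 0 in the library labelled ERAP1+/-. The part of skin in the difference of Cidea was not tested.

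Beside Plin4 and Lpl, which striated muscle also expresses, the 10 skeletal muscle genes had summed levels of 1017 and 18.4 CPM and a median difference of -5.34, with Atp2a1, named after its values were seen, at 0 in the library labelled ERAP1+/-. Differences were largest for Myh1, Ttn, Tnnt3 and Mylpf. The 8 smooth muscle genes had a median of -0.91, and Myh11 and Tagln were called lower. The epithelial list of 12 genes had a median of -0.31, with Muc2 called higher (12020 and 32939 reads) and Krt20 called lower (5156 and 2674 reads). The part of muscle in the values of Plin4 and Lpl was not tested.

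**Figure D4:**
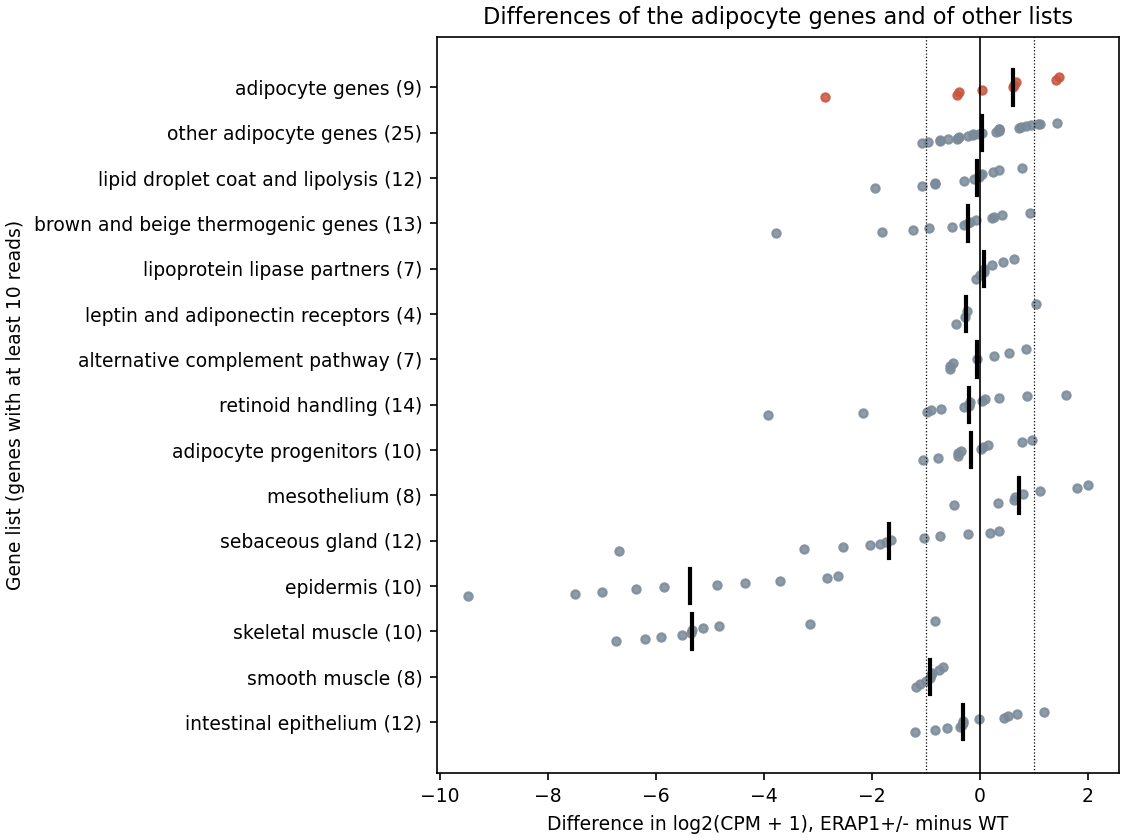
Difference in log2(CPM + 1), ERAP1+/- minus WT, of each gene with at least 10 reads in the adipocyte genes (red) and in 14 other lists (grey), with the number of genes in parentheses and the median of each list as a black bar. The adipocyte genes spread from -2.87 to 1.47 around a median of 0.62, the mesothelium list has a median of 0.72, and the sebaceous gland (-1.69), epidermis (-5.36) and skeletal muscle (-5.34) lists lie below 0.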

How the data were processed

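RNA from the intestine of WT and ERAP1+/- mice was prepared with the QuantSeq 3' kit and sequenced as 1 library per genotype. The authors deposited counts, whole reads per gene symbol without normalization. Their methods name STAR with HTSeq-count, and also Bowtie2 with RSEM (the tools in the submitters' processing notes), on GRCm38, and the source of the deposited values is not given in the sources used here. Mitochondrial and ribosomal RNA features took 18.0% of WT and 16.7% of ERAP1+/- reads.

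Library sizes were multiplied by TMM factors (0.958 for WT, 1.04 for ERAP1+/-; edgeR 4.0.16, R 4.3.3), and ratios were given exact conditional binomial intervals (scipy 1.17.1), with a floor of 3 reads for a count of 0. A gene was called where log2(CPM + 1) differed by more than 2-fold and was at least 4 in 1 or both libraries. The intervals and the 2-fold rule were run on simulated counts with counting error alone, known library sizes and changes planted only in well expressed genes. That simulation cannot show how they perform for low genes or for differences between pools of mice. The members, the 14 other lists (168 genes) and the rules were chosen with earlier results of these data known. Genes named outside the members were those called in a list, or the 4 with the largest differences where more than 6 were called, or the 2 with the most reads where none was, and others are marked in the text. For 1 gene this result is not reported here. Alternatives were DESeq2 1.42.0 size factors, total count scaling, other filters, thresholds and a pseudocount of 0.1. Gene coordinates were from GENCODE M21 and promoters from RefSeq, both on GRCm38.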

Additional observations from a re-analysis of the deposited data

How the results depend on the processing

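Only Cfd was called under DESeq2 size factors, total count scaling, a pseudocount of 0.1 and TMM factors made without the skin and muscle lists, as in the main setting. Without mitochondrial and ribosomal RNA, with at least 10 reads in place of the level, and with no filter, 3 members were called (Adipoq and Cfd higher, Cidea lower), because Adipoq and Cidea lie just under the level, and with a 4-fold threshold 0 were. The other lists, 168 genes, gave 31 calls, 2 higher and 29 lower. Of these, epidermis gave 10, skeletal muscle 9 and the sebaceous gland 4, all lower. With at least 10 reads or no filter there were 48, 9 higher and 39 lower. Among all genes the shares were 1.39% higher and 3.96% lower by the rule with the level. With at least 10 reads they were 2.99% and 5.63%. The members' median of 0.62 was 0.13 without Lpl, Retsat and Cfd. The ratio of the summed levels, 1.41, was 1.54 with total count scaling, 1.13 without Cfd, 1.36 without Retsat and 0.863 without Lpl, Retsat and Cfd, which is below 1. In alternatives chosen after seeing the data it was 1.55 without Cidea and 2.40 for Adipoq, Plin1, Cidec and Lep alone. Total count scaling moved the median of all genes by 0.11 on the log2 scale. The ratios of single members stayed within their intervals in 36 of 36 values. This count could not show instability, because a change of scaling multiplies all member ratios by the same factor, small beside the intervals. With total count scaling, the members with an interval above 1 rose from 3 to 4, with Cidec added. Those with an interval below 1 fell from 2 to 1, as the interval of Plin4 then included 1. Of 70 medians of other lists, 65 stayed within a band set by the median counting error of their single genes. Such a band is for a single gene, not for a median, and is wide, so this count is a weak check. With a pseudocount of 0.1, medians moved from -1.69 to -2.74 (sebaceous gland), -5.36 to -7.56 (epidermis) and -5.34 to -6.58 (skeletal muscle). With total count scaling, they moved from -0.91 to -0.79 (smooth muscle) and -0.31 to -0.19 (intestinal epithelium). Depth limits Plin1, Lep and Ucp1, with 3 to 20 reads over both libraries. No paired analysis was possible because there is 1 library of each genotype and no replicate numbers to pair.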

Other observations

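Retinoid genes were listed because Retsat acts on retinol. Of 14 with at least 10 reads, the median log2 difference was -0.19, and 1 of the 4 past the level was called: Cyp26b1, which breaks down retinoic acid, had 132 and 28 reads and was 5.64-fold lower in the library labelled ERAP1+/- (3.73 to 8.82). Chosen after their values were seen, Crabp2, a retinoic acid carrier of skin, had 110 and 0 reads, at least 43.9-fold lower (exact lower limit 35.1-fold). Aldh1a2, which makes retinoic acid and is expressed in mesothelium, had 0 and 19 reads, at least 5.29-fold higher (exact lower limit 3.90-fold). The first bound of each uses the floor of 3 reads per library.

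Of 10 genes of adipocyte progenitors, 5 were higher and 5 lower, with a median log2 difference of -0.16. The 1 gene called was Pi16, of fibroblasts around vessels, with 141 and 77 reads and a level 2.19-fold lower (1.65 to 2.93). Pdgfra, a broad fibroblast gene chosen after its values were seen, had 305 and 380 reads and a ratio of 1.04 (0.893 to 1.21).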
